A study of Oreochromis niloticus with 6 samples.

Results

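The insulin-like growth factor (IGF) genes of Nile tilapia gill were followed in 6 RNA-seq libraries, 3 labelled hypoxia and 3 labelled control. The members are the rows of the expression table named igf1, igf2, igf1r, igfbp1, igfbp2, igfbp3, igfbp4, igfbp5, igfbp6 or igfbp7, with or without a copy letter a or b, in capitals or not, and with a closing note such as "(1 of many)" ignored. This gave 22 rows of 40538, under 15 gene names, and each of the 10 names in the rule had at least 1 row. The fish were of the genetically improved farmed tilapia (GIFT) strain of Oreochromis niloticus. Gill of the hypoxia group was taken 96 h after the water had been brought within 30 min to about 1.0 mg/L dissolved oxygen with nitrogen, and control tanks were kept at 5 mg/L. The labels give no age and no genotype other than the strain, describe the tanks in differing ways, and do not say which tank or fish gave a library or whether fish were pooled. The p-values therefore measure only the spread between these libraries.

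IGF1 and IGF2 are secreted growth factors that act through the receptor tyrosine kinase IGF1R. Outside the cell most IGF is held by IGF binding proteins (IGFBPs), which prolong its life in the circulation and, depending on the protein and on the proteases that cut it, block or aid its access to the receptor. In zebrafish, igfbp1 is induced in low oxygen through the hypoxia-inducible factor (HIF), and Igfbp5a made by calcium-transporting ionocytes, cells of the kind also found in fish gill, promotes IGF signalling in them.

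Levels are given as FPKM, a measure scaled for transcript length and for the number of mapped fragments, so that levels of different genes can be set side by side. The summed FPKM per library was 466826 to 483691 under the hypoxia label and 438405 to 455738 under the control label, without overlap. The number of fragments is not known. Sequencing depth was estimated from the smallest value steps, relative to hypoxia replicate 1. It was 1.06 and 1.07 in hypoxia replicates 2 and 3 and 1.09 to 1.21 in the libraries labelled control, so it too differed with the label. Gill epithelial markers were present in every library, with the summed FPKM of 5 rows at 577 to 762 in the libraries labelled hypoxia and 658 to 801 in those labelled control. The labels themselves are in doubt, because egln3, a HIF-induced prolyl hydroxylase, was at 3.25 ± 0.699 FPKM in the libraries labelled hypoxia and 69.8 ± 37.0 FPKM in those labelled control (SD, n = 3 each). ddit4, an mTOR inhibitor and also a HIF target, lay the same way, as given below. Whether the labels were exchanged or these genes truly lay lower in low oxygen was not tested. Every direction below rests on these labels.

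A row was tested where its mean over the 6 libraries was at least 1 FPKM, with limma on log2(FPKM + 1) and a Benjamini-Hochberg adjusted p under 0.05 over all 25111 such rows. Of the 22 IGF rows, 13 were tested and 9 lay under that level. Of the 13, 1 was called lower in the libraries labelled hypoxia, igfbp6b, and 12 did not pass. Of all rows tested, 3.3% were called lower and 3.46% higher, or 829 and 870 rows, and the balance moved to 942 lower and 593 higher with each library rescaled to the same sum and to 1029 and 700 with median-of-ratios scaling. None of the 13 was called higher by limma, and none had an unadjusted p under 0.05 in that direction. Groups did not overlap in 2 of the 13 rows, igfbp6b and IGFBP4, both lower in the libraries labelled hypoxia, where 14% of all tested rows lay lower without overlap and 19.1% higher. The median log2 change of the 13 rows was -0.15, against 0.05 over all tested rows.

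**Figure D1:**
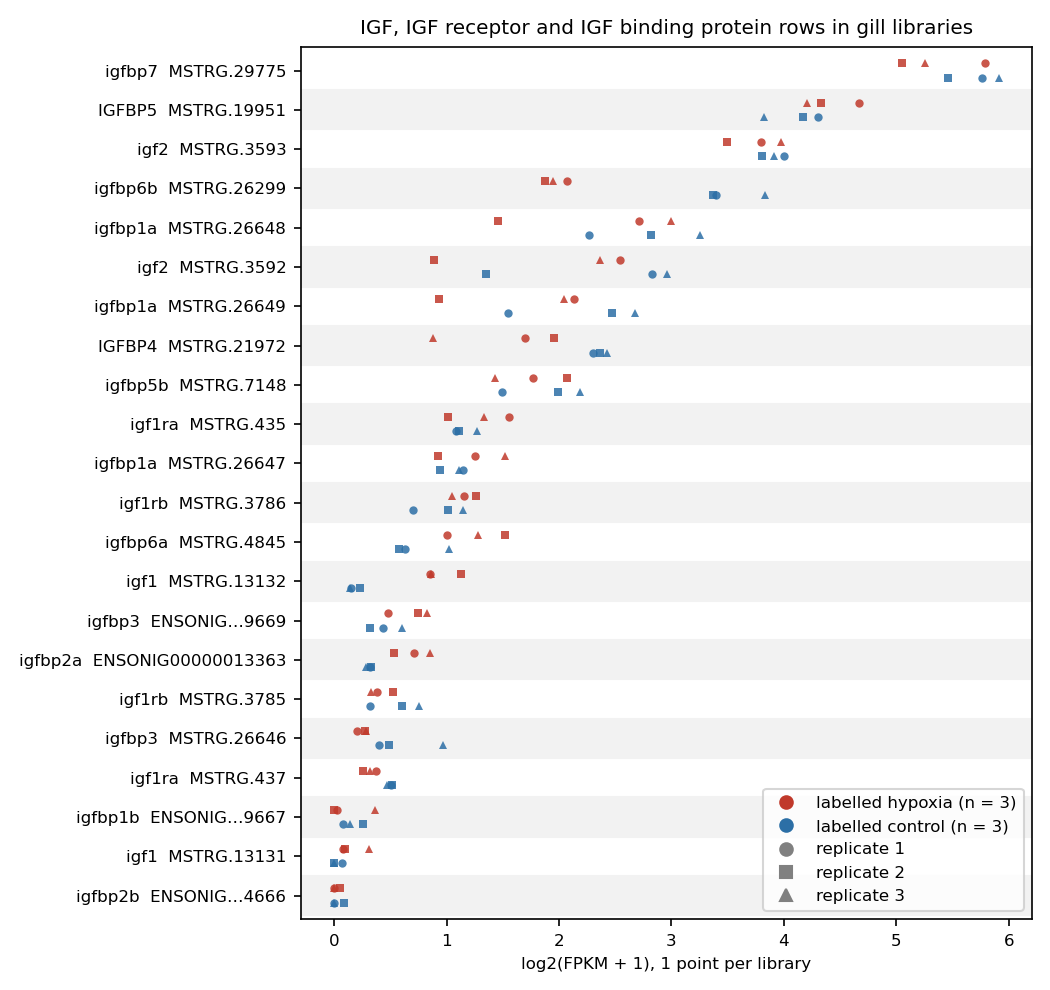
Expression of the 22 IGF, IGF receptor and IGF binding protein rows, ordered by mean level, as log2(FPKM + 1) with 1 point per library (red, labelled hypoxia, above blue, labelled control, n = 3 each). The red and blue points of igfbp6b stand apart, and igfbp7 is the highest row in every library.

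The ligands were represented mainly by igf2, the growth factor that in mammals is best known from fetal growth. The igf2 locus MSTRG.3593 had 12.9, 10.3 and 14.7 FPKM in hypoxia replicates 1 to 3 and 15.1, 12.997 and 14.1 FPKM in control replicates 1 to 3. These groups overlapped, and the log2 change was -0.15 ± 0.15 (SE, adjusted p = 0.575 by limma), with a 95% interval of -0.52 to 0.22. The neighbouring igf2 locus MSTRG.3592, by its identifier the one before it, holds an Ensembl transcript of igf2. It had 4.83, 0.849 and 4.15 FPKM in the libraries labelled hypoxia, against 6.11, 1.54 and 6.81 FPKM in those labelled control. The library numbered 2 was thus the lowest of its group in each condition, and the groups overlapped (log2 change -0.45 ± 0.61 SE, adjusted p = 0.686). Whether the 2 loci are pieces of 1 gene cannot be told from the table. Without hypoxia replicate 2 the change of MSTRG.3592 was 0.075, of the opposite sign.

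igf1, the growth hormone-dependent ligand that is made chiefly by liver and also locally in many tissues, was far lower than igf2 and lay under the level for testing. Its locus MSTRG.13132, an assembled transcript, had 0.801, 1.18 and 0.818 FPKM in the libraries labelled hypoxia, against 0.108, 0.172 and 0.106 FPKM in those labelled control. Every hypoxia value lay above every control value, and the means of 0.933 ± 0.214 FPKM under the hypoxia label and 0.128 ± 0.0377 FPKM under the control label (SD, n = 3 each) differed 7.27-fold. In a limma fit of all 40538 rows without a minimum level, where 1.28% of rows were called higher and 1.33% lower, it was called (log2 change 0.77 ± 0.12 SE, adjusted p = 0.0404). That call was lost with a pseudocount of 0.1 (adjusted p = 0.0574) and with any library other than hypoxia replicate 2 left out, at 0.09997 without hypoxia replicate 1, 0.1004 without hypoxia replicate 3, 0.107 without control replicate 1, 0.115 without control replicate 2 and 0.123 without control replicate 3. The adjusted p ranged from 0.0385 to 0.205 over the alternatives run on this row.

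The igf1 locus with the Ensembl transcript, MSTRG.13131, had 0.0551, 0.0711 and 0.243 FPKM in the libraries labelled hypoxia and 0.0515 FPKM in control replicate 1, and was listed at 0 in control replicates 2 and 3. Its lowest hypoxia value lay just above the highest control value, and in the fit of all rows it did not pass (adjusted p = 0.378). Together the igf1 rows made up 4.60%, 10.1% and 5.31% of the summed ligand FPKM in hypoxia replicates 1 to 3, against 0.745%, 1.17% and 0.503% in control replicates 1 to 3. igf2 was therefore the main ligand transcript in all 6 libraries.

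The receptor igf1r was present as copies a and b, each with 1 tested locus and 1 locus under 1 FPKM. igf1ra (MSTRG.435) had 1.93, 1.016 and 1.52 FPKM in the libraries labelled hypoxia, against 1.13, 1.16 and 1.41 FPKM in those labelled control (log2 change 0.14 ± 0.22 SE, adjusted p = 0.718). igf1rb (MSTRG.3786) had 1.22, 1.40 and 1.06 FPKM in the libraries labelled hypoxia and 0.625, 1.0205 and 1.22 FPKM in those labelled control (log2 change 0.20 ± 0.23 SE, adjusted p = 0.625). Neither locus separated the groups. The Ensembl-annotated locus of igf1ra, MSTRG.437, had 0.293, 0.195 and 0.245 FPKM in the libraries labelled hypoxia, against 0.422, 0.433 and 0.387 FPKM in those labelled control, without overlap and in the direction opposite to MSTRG.435. It did not pass in the fit of all rows (adjusted p = 0.251). The annotated igf1rb locus, MSTRG.3785, had overlapping groups, at 0.252 to 0.437 FPKM under the hypoxia label and 0.246 to 0.690 FPKM under the control label. Summed over the 4 receptor rows, the FPKM was 3.30 ± 0.397 in the libraries labelled hypoxia and 3.09 ± 0.644 in those labelled control (SD, n = 3 each).

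Among the binding proteins, igfbp7 was the most abundant. It binds IGFs weakly and is known in mammals as a secreted protein of vessel walls. It had 54.3, 32.1 and 37.2 FPKM in the libraries labelled hypoxia and 53.1, 43.1 and 59.2 FPKM in those labelled control, and the groups overlapped (log2 change -0.35 ± 0.22 SE, adjusted p = 0.383). It supplied 50.7 ± 3.58% of the summed IGFBP FPKM in the libraries labelled hypoxia and 52.2 ± 3.82% in those labelled control (SD, n = 3 each). The marker list of endothelium and pillar cells, the cells that line the blood spaces of the gill lamellae, was summed as well. It came to 88.0 to 115 FPKM in the libraries labelled hypoxia and 93.8 to 100.8 FPKM in those labelled control. Its rows went both ways, with an unadjusted p under 0.05 in limma for 3 higher and 2 lower rows. The highest row, vwf, averaged 39.5 FPKM under the hypoxia label and 23.2 FPKM under the control label (adjusted p = 0.158). The 1 called row, ednrab (MSTRG.25256), averaged 3.54 FPKM under the hypoxia label and 14.8 FPKM under the control label (adjusted p = 0.0117).

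IGFBP5 came next, with 24.4, 19.2 and 17.5 FPKM at MSTRG.19951 in the libraries labelled hypoxia, against 18.8, 17.0 and 13.1 FPKM in those labelled control. The groups overlapped and the row did not pass (log2 change 0.30 ± 0.18 SE, adjusted p = 0.353, 95% interval -0.14 to 0.75). The table gives this row no copy letter, so it is not assigned to igfbp5a here. The other copy, igfbp5b, had 2.41, 3.19 and 1.70 FPKM in the libraries labelled hypoxia and 1.82, 2.98 and 3.56 FPKM in those labelled control (log2 change -0.14 ± 0.26 SE, adjusted p = 0.776). Its sign turned without hypoxia replicate 3 or without control replicate 3, to 0.026 and 0.012. Both igfbp5 rows together supplied 59.9%, 64.4% and 49.9% of the summed FPKM of igfbp1 to igfbp6 in hypoxia replicates 1 to 3, against 48.4%, 42.8% and 32.0% in control replicates 1 to 3. The summed igfbp5 FPKM itself overlapped, at 19.2 to 26.9 under the hypoxia label and 16.7 to 20.6 under the control label. The share also depends on the other rows of the total, of which igfbp6 averaged 4.34 FPKM under the hypoxia label and 11.4 FPKM under the control label. The marker list of ionocytes summed to 205 to 265 FPKM in the libraries labelled hypoxia and 242 to 270 FPKM in those labelled control, and trpv6, the calcium channel of calcium-transporting ionocytes, had 7.76, 5.54 and 3.64 FPKM under the hypoxia label, against 5.99, 5.37 and 2.24 FPKM under the control label.

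igfbp6b was the called member. IGFBP6 is known in mammals for its preference for IGF2 over IGF1. igfbp6b (MSTRG.26299) had 3.19, 2.67 and 2.86 FPKM in the libraries labelled hypoxia, against 9.54, 9.34 and 13.2 FPKM in those labelled control. The hypoxia values lay close together, and the highest of them was far under the lowest control value. It fell to 2.91 ± 0.262 FPKM in the libraries labelled hypoxia, against 10.7 ± 2.19 FPKM in those labelled control (SD, n = 3 each), so that the control mean was 3.68 times the hypoxia mean (log2 change -1.57 ± 0.16 SE, 95% interval -1.96 to -1.17, adjusted p = 0.0116 by limma). Bulk tissue was measured, so fewer cells of a type that makes igfbp6b and less igfbp6b RNA per cell cannot be told apart.

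Its copy igfbp6a (MSTRG.4845) had 1.00, 1.87 and 1.43 FPKM in the libraries labelled hypoxia, against 0.545, 0.488 and 1.03 FPKM in those labelled control. It did not pass (log2 change 0.53 ± 0.26 SE, adjusted p = 0.264), and hypoxia replicate 1 overlapped control replicate 3. igfbp6b exceeded igfbp6a by 3.18, 1.43 and 2.00 times in hypoxia replicates 1 to 3 and by 17.5, 19.1 and 12.9 times in control replicates 1 to 3. The log2 ratio of the copies was 1.06 ± 0.58 in the libraries labelled hypoxia and 4.02 ± 0.30 in those labelled control (SD, n = 3 each). This ratio was chosen after the values were seen and is a description, and igfbp6a reached the level for testing through the libraries labelled hypoxia, at 1.44 ± 0.434 FPKM, against 0.687 ± 0.296 FPKM in those labelled control. The igfbp6 rows supplied 11.2 ± 1.87% of the summed FPKM of igfbp1 to igfbp6 in the libraries labelled hypoxia and 24.0 ± 3.11% in those labelled control.

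**Figure D2:**
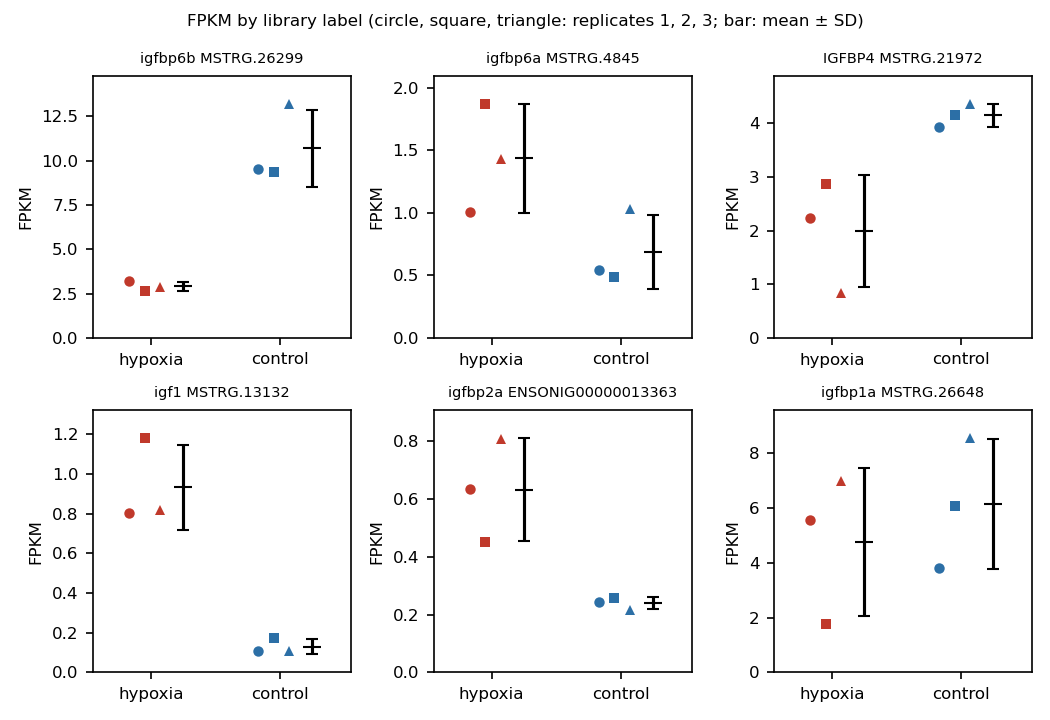
FPKM of 6 rows in each library, with the libraries labelled hypoxia on the left of each panel and those labelled control on the right, and the mean ± SD of 3 libraries as a bar. The igfbp6b values are 2.67 to 3.19 under the hypoxia label and 9.34 to 13.2 under the control label, igf1 (MSTRG.13132) and igfbp2a lie higher under the hypoxia label at under 1.2 FPKM, and igfbp1a overlaps.

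IGFBP4, which in mammals mostly inhibits IGF action and is cut by the protease PAPPA, had 2.24, 2.88 and 0.839 FPKM at MSTRG.21972 in the libraries labelled hypoxia, against 3.94, 4.16 and 4.37 FPKM in those labelled control. The groups did not overlap, but the hypoxia values spread over a wider range than the gap between the groups, and the row did not pass (log2 change -0.86 ± 0.29 SE, adjusted p = 0.136, 95% interval -1.56 to -0.15). A neighbouring assembled locus that the table names IGFBP4 and IKZF3 together, and that the rule does not take, had 10.5, 9.42 and 10.7 FPKM in the libraries labelled hypoxia and 7.62, 10.3 and 9.36 FPKM in those labelled control (adjusted p = 0.514). Reads of IGFBP4 may be counted there, so the level of MSTRG.21972 is uncertain.

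igfbp1, the hypoxia-responsive member in zebrafish, did not separate the groups. Copy a had 3 loci with consecutive identifiers, which may be pieces of 1 gene. MSTRG.26648 had 5.55, 1.75 and 6.999 FPKM in the libraries labelled hypoxia, against 3.81, 6.07 and 8.55 FPKM in those labelled control (log2 change -0.39 ± 0.46 SE, adjusted p = 0.637). The annotated locus MSTRG.26649 had 3.39, 0.910 and 3.14 FPKM in the libraries labelled hypoxia and 1.92, 4.53 and 5.41 FPKM in those labelled control (log2 change -0.53 ± 0.44 SE, adjusted p = 0.499, 95% interval -1.60 to 0.54). Hypoxia replicate 2 was the lowest library at both loci. Without it the change of MSTRG.26648 was 0.075, of the opposite sign. The third locus, MSTRG.26647, lay between 0.897 and 1.87 FPKM in the libraries labelled hypoxia and between 0.917 and 1.22 FPKM in those labelled control (log2 change 0.17 ± 0.23 SE, adjusted p = 0.697). Copy b stayed at or under 0.290 FPKM in every library.

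Hypoxia replicate 2, low for igfbp1a and for the annotated igf2 locus, was also low for the hepatocyte marker list, which holds 6 rows here. Their summed FPKM was 2.30 in hypoxia replicate 2 and at most 5.96 in the libraries labelled hypoxia, against 5.87 to 6.43 in those labelled control. In that library fgb, a fibrinogen chain, was listed at 0 and apoa1a, an apolipoprotein, was at 0.0134 FPKM, against 0.3003 to 0.496 FPKM for fgb and 1.03 to 2.03 FPKM for apoa1a in the other libraries. Another fibrinogen chain of the list, fga, lay above the control values there, at 1.95 FPKM in hypoxia replicate 2, against 1.84, 1.44 and 1.53 FPKM in control replicates 1 to 3, and it made up most of that library's sum. Control replicate 2 was low for the annotated igf2 locus as well, at 1.54 FPKM against 6.11 and 6.81 FPKM in control replicates 1 and 3. Its sum of this list was the lowest among the libraries labelled control, but near the others, at 5.87 FPKM against up to 6.43 FPKM. At igfbp1a MSTRG.26648 and MSTRG.26649 control replicate 1 was the lowest instead, at 3.81 and 1.92 FPKM. Control replicate 2 had 6.07 and 4.53 FPKM there, and was the lowest control library only at MSTRG.26647, at 0.917 FPKM. The part of the hepatocyte list in the IGF values was not tested.

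igfbp2 and igfbp3, carriers of IGF in the circulation, averaged under 1 FPKM at each of their rows. igfbp2a had 0.635, 0.451 and 0.807 FPKM in the libraries labelled hypoxia, against 0.244, 0.257 and 0.217 FPKM in those labelled control. The groups did not overlap, and the means differed 2.64-fold, but in the fit of all rows it did not pass (log2 change 0.39 ± 0.11 SE, adjusted p = 0.142). igfbp2b stayed at or under 0.0642 FPKM and was listed at 0 in 4 libraries. igfbp3 had 2 rows. MSTRG.26646, which precedes the igfbp1a loci by its identifier, had 0.151, 0.207 and 0.217 FPKM in the libraries labelled hypoxia, against 0.322, 0.401 and 0.952 FPKM in those labelled control, without overlap (adjusted p = 0.301 in the fit of all rows). The other igfbp3 row, with an Ensembl identifier, had overlapping groups, at 0.396 to 0.773 FPKM under the hypoxia label and 0.247 to 0.516 FPKM under the control label (adjusted p = 0.433). In the RefSeq gene table of assembly O_niloticus_UMD_NMBU, igfbp3 lies beside igfbp1a and igfbp5a beside igfbp2a. Of the 9 rows under the level for testing, 3 lay higher and 2 lower without overlap, where 11.3% and 5.26% of all such rows did.

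**Figure D3:**
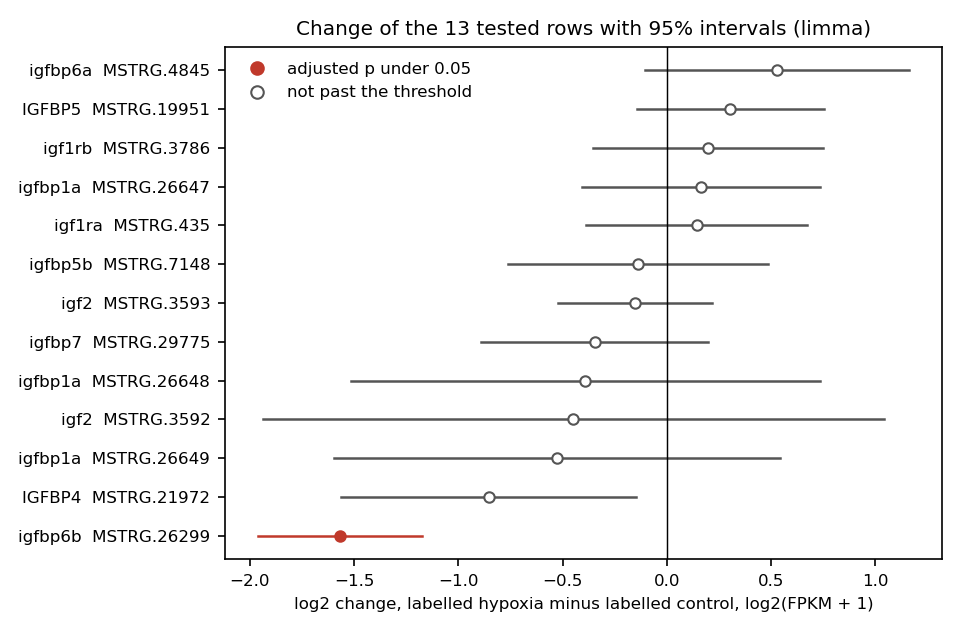
Log2 change of the 13 tested rows, labelled hypoxia minus labelled control, with 95% intervals from limma (3 libraries each). igfbp6b at -1.57 is the filled point, and the intervals of igf2 MSTRG.3592 and of the igfbp1a loci MSTRG.26648 and MSTRG.26649 are the widest.

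By mean level over the 6 libraries the order was igfbp7 (46.5 FPKM), IGFBP5 (18.3), igf2 MSTRG.3593 (13.4), igfbp6b (6.81), igfbp1a MSTRG.26648 (5.45), igf2 MSTRG.3592 (4.05), igfbp1a MSTRG.26649 (3.22), IGFBP4 (3.07) and igfbp5b (2.61), with the remaining rows at 1.36 FPKM or less. The lowest igfbp7 value, 32.1 FPKM, lay above the highest of IGFBP5, 24.4 FPKM. From IGFBP5 down, each row's range over the libraries overlapped that of the next. The FPKM of igfbp1 to igfbp6 summed to 39.3 ± 5.11 in the libraries labelled hypoxia and 47.1 ± 4.85 in those labelled control, and that of the ligands to 17.0 ± 4.05 under the hypoxia label and 19.0 ± 3.73 under the control label (SD, n = 3 each). Without igfbp7, the binding proteins igfbp1 to igfbp6 exceeded the ligands by 2.41, 2.81 and 1.92 times in hypoxia replicates 1 to 3. In control replicates 1 to 3 they did so by 2.00, 3.17 and 2.49 times, so that this ratio overlapped. The IGF sums, shares and ratios given here and above add every locus, so a gene in pieces can count more than once. Those of the binding proteins leave out the locus named IGFBP4 and IKZF3 together, at 7.62 to 10.7 FPKM.

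**Figure D4:**
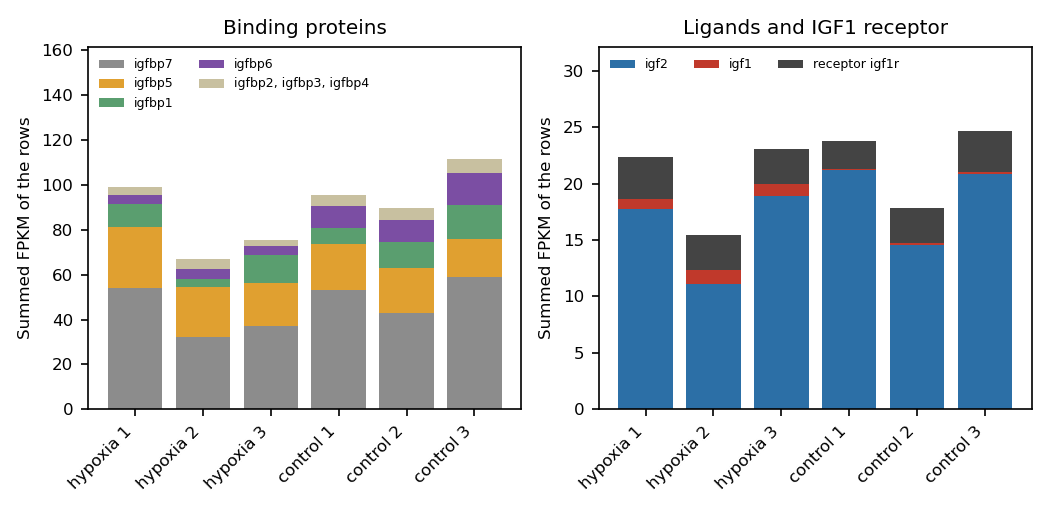
Summed FPKM of the binding protein rows (left) and of the ligand and igf1r rows (right) in each library, stacked by gene, with the libraries labelled hypoxia before those labelled control. igfbp7 and igfbp5 make up most of the binding protein bars, and igf2 most of the ligand bars.

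Among the 3 named genes whose log2(FPKM + 1) followed igfbp6b most closely over the 6 libraries were r3hdm4 (Pearson r = 0.998) and plin2, of a lipid droplet protein (r = 0.996). These are descriptions over 6 libraries that also share the group difference. plin2 was at 5.96 ± 0.218 FPKM in the libraries labelled hypoxia and 19.0 ± 2.97 FPKM in those labelled control (SD, n = 3 each), and r3hdm4 was at 28.9 ± 1.195 FPKM under the hypoxia label and 46.9 ± 2.80 FPKM under the control label.

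Of the genes around the IGF receptor, none of 4 tested rows of the receptor list passed in limma. With 3.3% called lower and 3.46% higher over all tested rows, no call is common in so short a list. In each direction 1 row had an unadjusted p under 0.05. igf2r, the receptor that in mammals takes up IGF2 for degradation, had 7.43, 10.6 and 7.65 FPKM in the libraries labelled hypoxia, against 14.6, 12.4 and 10.3 FPKM in those labelled control (adjusted p = 0.168). The insulin receptor row INSR (MSTRG.13702) had 8.48, 8.11 and 7.12 FPKM under the hypoxia label, against 6.30, 5.45 and 6.79 FPKM under the control label (adjusted p = 0.195). Another INSR locus, MSTRG.2910, was listed at 0 in control replicate 1 and at 6.12 to 10.3 FPKM elsewhere, and an exact 0 beside such values can be a failed estimate.

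The proteases and carriers that act on IGFBPs also gave no call among 5 tested rows, and no unadjusted p under 0.05 in limma. At the shares over all tested rows, 3.3% lower and 3.46% higher, no call is common in lists as short as those given here. The gelatinase mmp2 was at 7.28 ± 1.18 FPKM in the libraries labelled hypoxia and 5.49 ± 1.19 FPKM in those labelled control (adjusted p = 0.293), and the serine protease htra1b at 14.3 ± 1.88 FPKM under the hypoxia label and 17.7 ± 3.002 FPKM under the control label (adjusted p = 0.330). The other 15 rows of this list lay under 1 FPKM on average. Of 7 tested rows of the CCN family and other genes with an IGFBP-like domain or name, none passed, with an unadjusted p under 0.05 for 1 lower row. esm1, of an endothelial secreted proteoglycan, had 3.94, 2.22 and 4.01 FPKM in the libraries labelled hypoxia, against 6.78, 7.47 and 13.3 FPKM in those labelled control, without overlap (adjusted p = 0.0722), and wisp2 was at 2.18 ± 2.40 FPKM under the hypoxia label and 3.22 ± 0.889 FPKM under the control label (adjusted p = 0.479). None of 4 tested rows of the IGF2 mRNA binding proteins passed, and none had an unadjusted p under 0.05 in limma. igf2bp2a (MSTRG.12238) was at 3.98 ± 1.06 FPKM in the libraries labelled hypoxia and 5.96 ± 1.42 FPKM in those labelled control, and igf2bp3 (MSTRG.14110) at 6.10 ± 0.547 FPKM under the hypoxia label and 4.89 ± 0.534 FPKM under the control label.

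Of 13 tested rows of the growth hormone axis, 2 fell and none rose, against 3.3% called lower and 3.46% higher over all tested rows. An unadjusted p under 0.05 in limma was found for no row upward and for 4 downward, the called rows included. The list median was -0.23. Both called rows encode feedback inhibitors of the JAK-STAT signalling that growth hormone and other cytokines use. socs3b had 2.79, 3.77 and 4.82 FPKM in the libraries labelled hypoxia, against 13.7, 22.0 and 20.04 FPKM in those labelled control (log2 change -2.03 ± 0.24 SE, adjusted p = 0.0139). cish had 5.51, 5.27 and 6.39 FPKM in the libraries labelled hypoxia, against 11.5, 10.6 and 12.2 FPKM in those labelled control (log2 change -0.89 ± 0.12 SE, adjusted p = 0.0170). Leaving out hypoxia replicate 1 or control replicate 2 left 0 of them called, and leaving out the third library of either group left 1.

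Of 37 tested rows of the IRS, PI3K and AKT list, 4 fell and none rose in limma. The list was drawn up with genes that carry the signal inward from the receptor and with others that oppose it or are its targets. Its counts and median mix these. An unadjusted p under 0.05 was found for 1 row upward and 9 downward, the called rows included. The list median was -0.19. The shares over all tested rows were 3.3% lower and 3.46% higher. With loci of the same name summed, 2 of the 4 calls, of pik3r1 and akt3b, were lost. In that fit 3 rows of the list were called lower, among them irs2a and irs2b. irs2a, an adaptor that binds the activated insulin and IGF receptors, had 3.91, 4.11 and 2.77 FPKM in the libraries labelled hypoxia, against 14.3, 8.60 and 9.93 FPKM in those labelled control (log2 change -1.36 ± 0.22 SE, adjusted p = 0.0254). Its copy irs2b fell to 5.28 ± 0.417 FPKM in the libraries labelled hypoxia, against 8.42 ± 0.843 FPKM in those labelled control (SD, n = 3 each, adjusted p = 0.0478), was not called with any 1 library left out (0.0862 to 0.149), and was named after its values were seen. pik3r1 (MSTRG.15121), the regulatory subunit of PI3 kinase, fell to 26.2 ± 1.83 FPKM in the libraries labelled hypoxia, against 44.9 ± 3.02 FPKM in those labelled control (adjusted p = 0.0183). Another pik3r1 locus, MSTRG.29123, had 14.7, 14.8 and 7.49 FPKM under the hypoxia label, against 15.4, 12.4 and 9.26 FPKM under the control label (adjusted p = 0.964), and the loci summed gave an adjusted p of 0.0698. The kinase locus akt3b MSTRG.21180 was listed at 0 in all 3 libraries labelled hypoxia and at 3.16, 4.43 and 2.28 FPKM in those labelled control (adjusted p = 0.0157), while the akt3b locus MSTRG.21181 had 2.13, 4.199 and 2.68 FPKM under the hypoxia label, against 3.15, 4.00 and 2.02 FPKM under the control label (adjusted p = 0.970). Summed, the akt3b loci gave an adjusted p of 0.123. MSTRG.21180 reached the level for testing through the libraries labelled control alone, and its exact 0 values can be failed estimates, so its call is uncertain. The number of rows in the list that fell was 0 without hypoxia replicate 1, hypoxia replicate 3 or control replicate 2, and 1 without control replicate 3. That row was akt3b MSTRG.21180 (adjusted p = 0.0365 by limma). irs2a stayed called without hypoxia replicate 2 (0.0447) or control replicate 1 (0.0459), and was not called without any other library (0.0575 to 0.0886). irs2b was also not called without the filter on low values (0.0698).

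Of 30 tested rows of the mTOR branch, which couples growth factor signals to protein synthesis, 3 fell and none rose in limma. Over all tested rows 3.3% were called lower and 3.46% higher. An unadjusted p under 0.05 was found for 5 rows upward and 5 downward, the called rows included, and the list median was 0.02. Of the 3 rows that fell, 2 carry the name ddit4. The mTOR inhibitor ddit4 (MSTRG.18305) had 1.16, 1.08 and 0.876 FPKM in the libraries labelled hypoxia, against 30.0, 12.6 and 15.7 FPKM in those labelled control (log2 change -3.23 ± 0.31 SE, adjusted p = 0.0104). A second locus, DDIT4 MSTRG.5326, fell to 3.47 ± 3.13 FPKM in the libraries labelled hypoxia, against 45.4 ± 24.3 FPKM in those labelled control (adjusted p = 0.0309). eif4ebp3, a repressor of cap-dependent translation, fell to 13.2 ± 0.464 FPKM in the libraries labelled hypoxia, against 26.5 ± 6.75 FPKM in those labelled control (adjusted p = 0.0400). Of these rows ddit4 MSTRG.18305 alone stayed called with any 1 library left out, and the number that fell was 1 without hypoxia replicate 1, hypoxia replicate 3, control replicate 2, control replicate 3 or the filter on low values. Leaving out hypoxia replicate 2 or control replicate 1 gave 2.

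Of 21 tested rows of the RAS and MAP kinase branch, 1 fell and 1 rose, which is near the shares over all tested rows (3.3% lower and 3.46% higher), with a list median of -0.01. Both encode ribosomal S6 kinases that act below MAP kinase. rps6ka3a (MSTRG.24828) had 11.4, 10.6 and 10.7 FPKM in the libraries labelled hypoxia, against 15.7, 19.4 and 20.1 FPKM in those labelled control (adjusted p = 0.0329). rps6ka1 had 37.2, 33.2 and 30.3 FPKM in the libraries labelled hypoxia, against 15.7, 21.5 and 19.6 FPKM in those labelled control (adjusted p = 0.0360). The call of rps6ka1 was lost on the scale with equal library sums (adjusted p = 0.0664), with no filter on low values (0.0538) and with any 1 library left out (0.0583 to 0.121), and that of rps6ka3a with any library but control replicate 1 left out (0.0648 to 0.108).

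**Figure D5:**
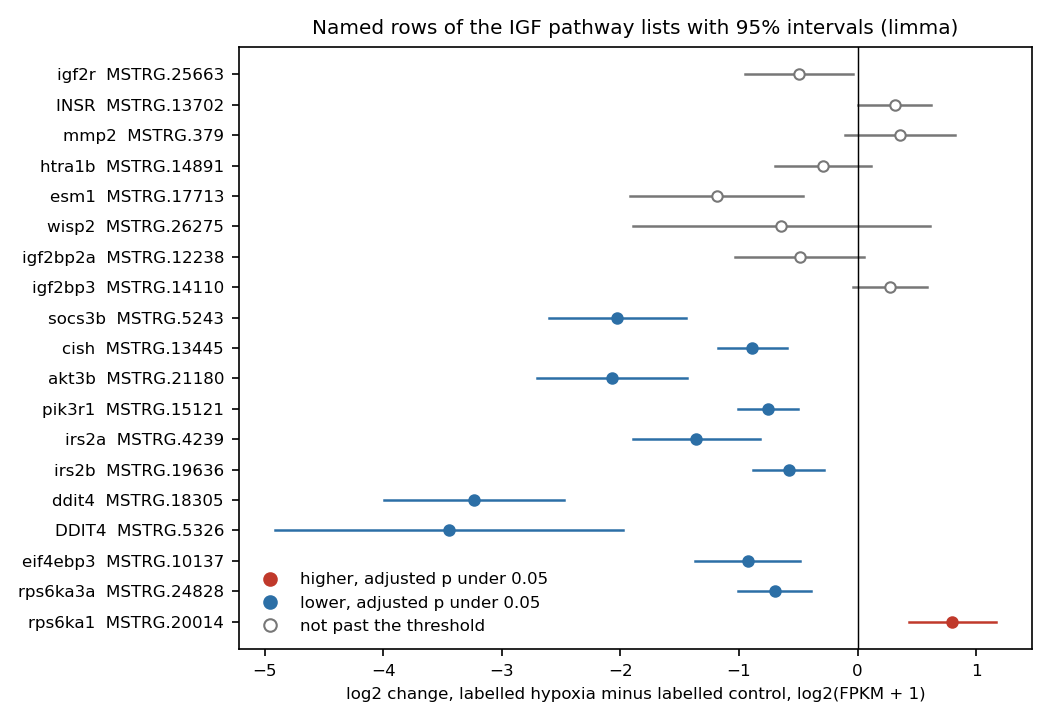
Log2 change with 95% intervals (limma, 3 libraries each) of the rows named from the 8 pathway lists, labelled hypoxia minus labelled control. Filled points passed an adjusted p of 0.05: socs3b, cish, akt3b, pik3r1, irs2a, irs2b, both ddit4 loci, eif4ebp3 and rps6ka3a lie below 0, and rps6ka1 lies above it.

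Markers of some other gill cell types moved with the labels. Over all tested rows, 3.46% were called higher and 3.3% lower. Of 10 tested fibroblast and perichondrium rows 7 rose and 1 fell, and their FPKM summed to 460 to 568 in the libraries labelled hypoxia and 197 to 255 in those labelled control. The row that fell was pdgfra, averaging 29.9 FPKM under the hypoxia label and 45.8 FPKM under the control label (adjusted p = 0.0496 by limma). fn1b, not called, also lay lower without overlap, averaging 32.9 FPKM under the hypoxia label and 51.0 FPKM under the control label. Of 10 leukocyte rows 5 rose, with sums of 2914 to 3397 FPKM under the hypoxia label and 1207 to 1407 FPKM under the control label. Most of each leukocyte sum came from 1 row, cd74b MSTRG.1327, averaging 2681 FPKM under the hypoxia label and 1081 FPKM under the control label. The 5 leukocyte rows not called were spi1b, cd79a, both mpx loci and cd74b MSTRG.1328. Of 10 skeletal muscle rows 5 rose, with sums of 789 to 965 FPKM under the hypoxia label and 406 to 548 FPKM under the control label. The muscle row tpm2 MSTRG.3057, not called, lay lower without overlap, averaging 4.95 FPKM under the hypoxia label and 11.5 FPKM under the control label. Of 13 cartilage and bone rows 2 rose, with sums of 51.8 to 106 FPKM under the hypoxia label and 38.0 to 40.8 FPKM under the control label. Of 11 endothelial and pillar cell rows 1 fell. No row passed in limma among 5 gill epithelium, 10 ionocyte, 6 smooth muscle and pericyte, 5 nerve and neuroendocrine and 2 hepatocyte rows. Their unadjusted p values under 0.05 numbered 1 upward and 1 downward in gill epithelium and in ionocytes, 1 upward in smooth muscle, 1 downward in nerve and 0 in hepatocytes. The part of these cell types in the change of igfbp6b or of the igf1 locus was not tested.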

How the data were processed

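Gill RNA was sequenced in 6 libraries, 3 labelled hypoxia and 3 labelled control, and the FPKM values of 40538 rows were deposited by the authors, with HISAT and StringTie named in the submitters' processing notes. The sources used here give no tool version, build, annotation or strand setting. StringTie loci make up 37062 rows and can split a gene or merge neighbours, and gene copies can share reads. Gene names came from the table, since the RefSeq gene table matched 0 of its identifiers. FPKM is not a count, so log2(FPKM + 1) was tested with limma 3.58.1 in R 4.3.3 (mean-variance trend, two-sided, no covariates) over rows averaging 1 FPKM or more, with Benjamini-Hochberg adjustment at 0.05 over all of them. The 1 added before the log2 makes the changes smaller than the FPKM themselves would give, most of all in low rows. The fit was checked on simulated data. The IGF rows, the 8 pathway lists, the 10 marker lists and the tests were chosen with earlier results of these data known. Named were all IGF rows, the 3 rows of each pathway list with the smallest p among those that passed (or 2, as values, where none passed), the 3 rows most like the IGF row with the smallest p (1 of them is not reported here), and egln3 and ddit4. The remaining rows named were added after their values were seen. Alternatives were other pseudocounts, filters, scalings, limma settings, loci summed by name, the replicate number as a block, and each library left out. Those on the igf1 locus, the igfbp6 ratio and the unfiltered fit with a pseudocount of 0.1 were chosen after seeing the data. The number of fragments is unknown, so precision is given as the spread over 3 libraries.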

Additional observations from a re-analysis of the deposited data

How the results depend on the processing

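The fall of igfbp6b was called in 16 of 17 alternatives, with log2 changes of -1.83 to -1.42 and adjusted p of 0.00759 to 0.0480. With the replicate number as a block (replicate block) its change was -1.57 with an adjusted p of 0.0842, the IGF rows called lower numbered 0, and the tested rows called numbered 0 higher and 2 lower. Over all tested rows, deviations of same-numbered libraries correlated at -0.116 to -0.044, so they did not vary together across the rows as a whole. The labels do not say what the number stands for. A correlation over all rows cannot show whether some rows share a tank or batch effect. Without a filter on low values 1 IGF row was called higher, igf1 MSTRG.13132, and 519 rows were called higher and 539 lower in all. Library weights gave 1412 higher and 1289 lower. With no filter and a pseudocount of 0.1 together, chosen after seeing the data, 551 were higher. Leaving out 1 library gave 104 to 783 higher and 151 to 792 lower. For the 13 tested IGF rows, 206 of 213 changes under the alternatives kept their sign and their side of the threshold, and 6 turned sign, none of them called: igfbp1a MSTRG.26647 with loci summed (-0.42), igfbp1a MSTRG.26648 without hypoxia replicate 2 (0.075, range over left-out libraries -0.69 to 0.075), igf2 MSTRG.3592 with library weights (0.058) and without hypoxia replicate 2 (0.075, range -0.96 to 0.075), and igfbp5b without hypoxia replicate 3 (0.026) or control replicate 3 (0.012, range -0.34 to 0.026). For the 12 rows not called in the main fit, the side that was kept was that of no call. With loci summed, each row was given the change of all loci of its name. The -0.42 is thus that of the igfbp1a loci together, not of MSTRG.26647 itself. A changed filter, robust eBayes in limma and the block leave each log2 change as it was, so its sign could not turn there. The unknown depth and the low level of igf1, igfbp2 and igfbp3 limit what can be said of them.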
